A study of Mus musculus with 8 samples.

Results

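C-type lectin receptors and their relatives were followed in RNA of the whole mouse esophagus after detergent exposure. The genes were taken by name, as every mouse symbol starting with Clec, Klr, Colec or Cd209 together with Cd207, Cd69 and Cd72, which gave 76 of the 49315 genes counted. Wild-type mice had either drunk SDS (sodium dodecyl sulfate, a detergent) at 0.5% in their water for 14 days or received untreated water, and the tissue was collected at day 14. There were 3 SDS libraries and 5 control libraries, for which the sources used here give no strain, sex or age. Whether libraries of a group came from different animals is not stated, so a p-value reflects only how these libraries spread, which may be technical.

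C-type lectin receptors are cell surface proteins with a fold that in many members binds sugars in the presence of calcium. On macrophages, dendritic cells and Langerhans cells they take up fungal, bacterial and self ligands, and activating members signal through the kinase Syk and the adaptor Card9, while inhibitory members recruit phosphatases. The related Klr receptors of natural killer cells and T cells mostly bind proteins, among them MHC class I molecules and the Clec2 proteins of neighbouring cells. Langerin, the product of Cd207, is the mannose-binding receptor that forms Birbeck granules. It is a marker of Langerhans cells, the dendritic cells of stratified squamous epithelia such as the esophagus.

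Of the 76 genes, 69 were annotated as protein-coding, and 57 lay on chromosome 6, where the natural killer gene complex holds most Klr and Clec genes in neighbouring positions. Library totals ran from 22033866 to 29802362 counts. The 76 genes together took 0.0390%, 0.0535% and 0.0279% of the counts in SDS libraries 1, 2 and 3, against 0.0257% to 0.0398% in controls. A filter on low counts left 39 of them for testing, 37 were too low, and 28 of these had at most 10 counts in every library. SDS library 3 differed more from SDS libraries 1 and 2 (rank correlations over genes of 0.963 and 0.955) than these did from each other (0.984), within the span of 0.951 to 0.991 among pairs of controls. The squamous epithelial markers Krt4, Krt5, Krt13, Krt14 and Trp63 summed to 147725 CPM in SDS library 3, to 87348 and 91110 CPM in SDS libraries 1 and 2, and to between 39839 and 133038 CPM in controls. Skeletal muscle markers summed to 20923, 17506 and 10852 CPM in SDS libraries 1, 2 and 3 and to between 23382 and 32470 CPM in controls, with 0 of the 5 markers called; the part of muscle content in the values below was not tested. CPM is a gene's count scaled to a common library total (trimmed mean of M values scaling), the usual counts-per-1e+06 unit.

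Cd207, Clec2e and Clec2g rose in SDS and no gene of the family fell. These 3 of 39 tested genes (7.69%) stand beside 0.623% of all 17179 tested genes called higher and 0.425% called lower, calling at an edgeR quasi-likelihood p of 0.05 adjusted by Benjamini-Hochberg. The other 36 did not pass. At an unadjusted p of 0.05 there were 17 higher and 0 lower, beside 9.98% and 8.53% of all tested genes. Among all 17179 tested genes the median log2 fold change was -0.005, with 8470 above 0, and among the 39 it was 0.95, with 31 above 0. The count of calls depended on single libraries. Without SDS library 3 it was 14 of 42 tested (33.3%), beside 4.98% of all genes called higher in that fit. Of the 14, Cd69, Clec4n and Klrd1 entered that fit only through SDS libraries 1 and 2, so this share is a description. Without SDS library 1 the count was 1 (Cd207), beside 0.108%, and without SDS library 2 it was 0, beside 0.0228%. It was 0 as well without control library 1 (beside 0.0236% of all genes called higher), 2 (0.0352%), 3 (0.0760%) or 5 (0.0529%). Without control library 4 it was 2, beside 0.465%.

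**Figure D1:**
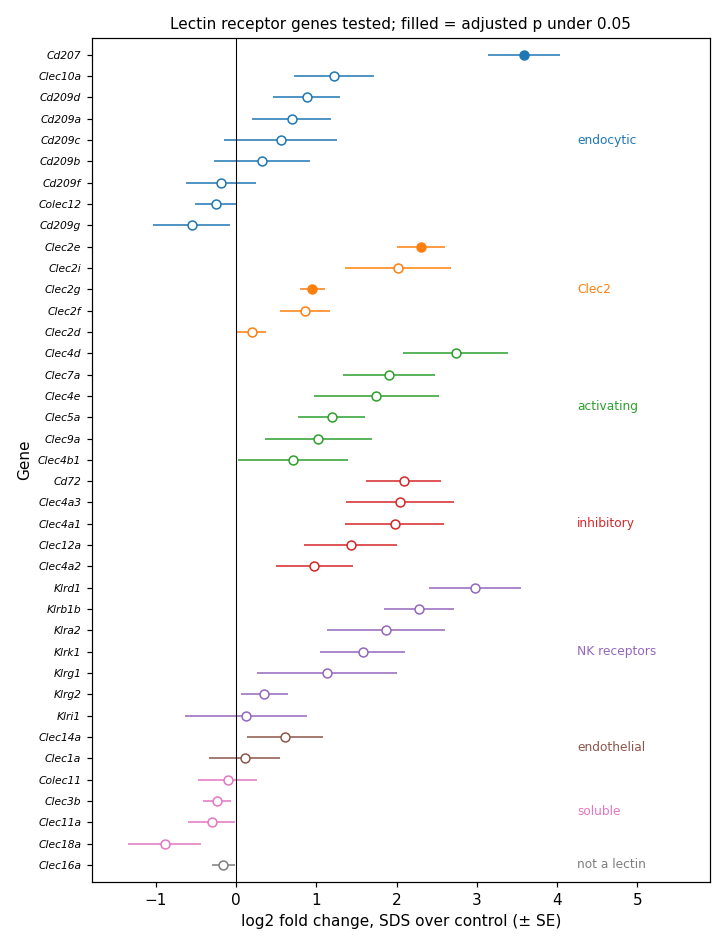
Log2 fold changes of SDS over control with their standard errors (x axis) for the 39 tested genes (y axis), grouped by role and coloured by group. Filled points passed an adjusted p of 0.05: Cd207 at 3.59, Clec2e at 2.30 and Clec2g at 0.95. The 4 soluble lectins and Clec16a lie below 0, Colec11 at -0.11 with a sign that turned in some settings.

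Cd207, the langerin gene, spans chromosome 6, 83671215 to 83677857 (mm10, minus strand), and no other counted gene overlaps its exons. It measured 10.4, 5.94 and 4.13 CPM in SDS libraries 1, 2 and 3, against 0.580, 0.193, 0.554, 0.473 and 0.992 CPM in control libraries 1 to 5. In raw counts these were 264, 169 and 99 in the SDS libraries and 17, 4, 15, 14 and 26 in the controls. Every SDS library stood above every control, and the lowest of them was SDS library 3. Cd207 averaged 6.81 ± 3.21 CPM in SDS (SD, n = 3) and 0.558 ± 0.287 CPM in controls (SD, n = 5), a 12-fold rise with a log2 fold change of 3.59 ± 0.45 (SE) and an edgeR quasi-likelihood adjusted p of 0.0240. Without single libraries the log2 fold change lay between 3.15 and 3.88. The call was lost without SDS library 2 (adjusted p = 0.109) and without control library 1 (0.0935), 2 (0.0553), 3 (0.0590) or 5 (0.0522). In bulk tissue, more cells of a type and more RNA per cell cannot be told apart, and the cells that gave the Cd207 reads were not identified.

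The genes that maintain or move Langerhans cells gave no call: 0 of 14 tested of 16 on the list passed in either direction, with a median log2 fold change of 0.66. Of all tested genes 0.623% were called higher and 0.425% lower. At an unadjusted edgeR p of 0.05, 6 of the 14 were higher and 0 lower, beside 9.98% and 8.53% of all tested genes. Il34, the keratinocyte cytokine that sustains Langerhans cells through Csf1r, measured 27.5, 24.0 and 19.9 CPM in SDS, with controls between 8.18 and 16.2 CPM (log2 0.90 ± 0.23, SE; edgeR adjusted p = 0.0935). The groups did not overlap for Il34. Ccr7, the receptor that guides dendritic cells to lymph nodes, measured 2.04, 4.99 and 0.459 CPM against at most 0.273 CPM in a control (log2 3.92 ± 0.74; adjusted p = 0.0507). It was tested only through its SDS libraries. Runx3, a transcription factor needed for Langerhans cells and cytotoxic lymphocytes, measured 4.72, 5.38 and 0.959 CPM with controls between 0.406 and 1.18 CPM (log2 2.28 ± 0.54). Itgae, the integrin of lymphocytes and dendritic cells within epithelia, measured 7.58, 5.87 and 0.542 CPM against 0.289 to 1.39 CPM (log2 2.87 ± 0.76), so SDS library 3 lay among the controls for Runx3 and Itgae. Epcam, an adhesion molecule of Langerhans cells and of epithelium, measured 29.9, 34.2 and 51.1 CPM against 22.7 to 42.7 CPM (log2 0.12 ± 0.24). The general dendritic cell markers Flt3, Zbtb46, Xcr1, Batf3, Itgax, Ccr7, Siglech and Cd83 summed to 34.8, 51.2 and 10.9 CPM in SDS libraries 1, 2 and 3, against 8.91 to 18.8 CPM in controls. None of the 8 was at 0 in all libraries and 0 passed. In SDS library 3, then, Cd207 stood above the controls while this sum stood among them; the part of dendritic cell number in the Cd207 result was not tested.

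**Figure D2:**
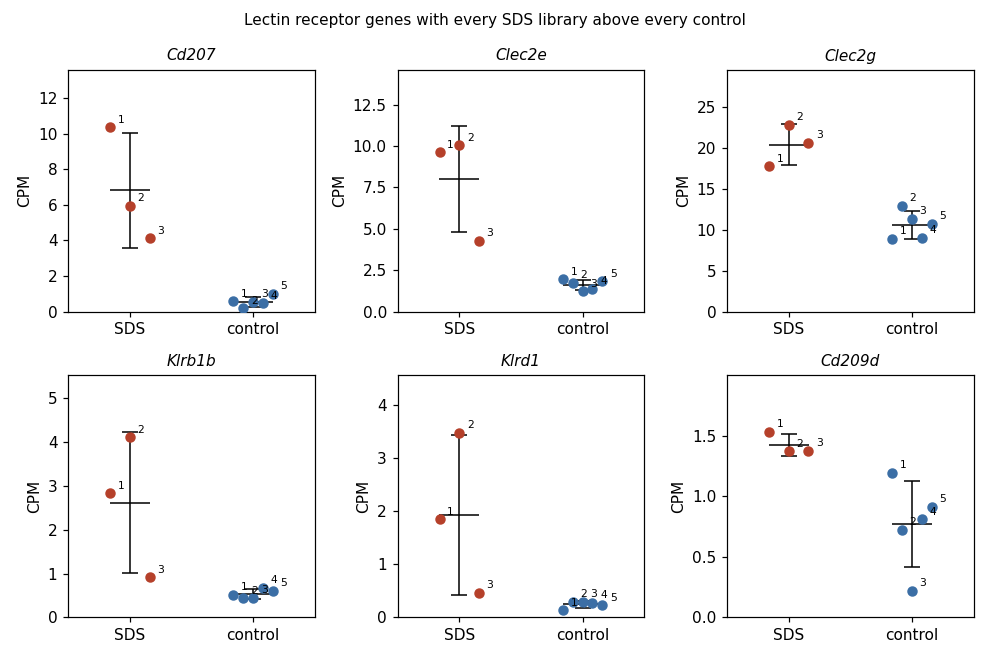
CPM by library (y axis) for the 6 tested genes whose SDS libraries (left, red) all lay above every control (right, blue). Points are libraries with their numbers, horizontal bars are means and whiskers SD. SDS library 3 is the lowest SDS library for Cd207, Clec2e, Klrb1b and Klrd1.

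The Clec2 genes encode small lectin-like proteins, several of which are ligands of NKR-P1 receptors of natural killer cells. Clec2e (ENSMUSG00000030155, chromosome 6 from 129091998 to 129100913, minus strand) measured 9.63, 10.05 and 4.30 CPM in SDS libraries 1, 2 and 3, against 1.95, 1.73, 1.22, 1.39 and 1.83 CPM in control libraries 1 to 5. It averaged 7.99 ± 3.21 CPM in SDS (SD, n = 3) and 1.62 ± 0.308 CPM in controls (SD, n = 5), a 4.92-fold rise (log2 2.30 ± 0.30, SE; edgeR quasi-likelihood adjusted p = 0.0240). All SDS libraries lay above all controls. Clec2g (ENSMUSG00000000248, chromosome 6 from 128934381 to 128984707, plus strand) measured 17.8, 22.8 and 20.6 CPM in SDS, against 8.91, 12.9, 11.3, 9.02 and 10.7 CPM in the controls. It rose 1.93-fold (log2 0.95 ± 0.15, SE; edgeR quasi-likelihood adjusted p = 0.0368). Among the 3 genes called, Clec2g was the one in which SDS library 3 lay between SDS libraries 1 and 2.

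Both Clec2 genes kept their call without SDS library 3 (edgeR adjusted p = 0.000875 for Clec2e and 0.0239 for Clec2g), and Clec2e also without control library 4 (0.0390). Clec2e lost its call without SDS library 1 (edgeR adjusted p = 0.0587) or 2 (0.140) and without control library 1 (0.0857), 2 (0.0803), 3 (0.0590) or 5 (0.0820), with log2 fold changes between 2.10 and 2.6. Clec2g lost it without SDS library 1 (0.0619) or 2 (0.181) and without control library 1 (0.112), 2 (0.0803), 3 (0.0746), 4 (0.0534) or 5 (0.105), with log2 fold changes between 0.86 and 1.04.

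The other Clec2 genes did not pass. Clec2d, which encodes Clr-b, the ligand of the inhibitory receptor NKR-P1B, was the most abundant of them: it measured 37.1, 34.6 and 25.7 CPM in SDS, against 37.4, 25.1, 24.9, 30.4 and 23.9 CPM in controls (log2 0.19 ± 0.18, SE). Its groups overlapped, with the highest value in control library 1. Clec2f, annotated as a transcribed pseudogene, measured 4.13, 2.85 and 4.30 CPM with controls between 1.28 and 3.03 CPM (log2 0.85 ± 0.31). Clec2i, which encodes the NKR-P1 ligand Clr-g, measured 1.14, 2.85 and 0.25 CPM against 0.148 to 0.473 CPM (log2 2.02 ± 0.66, and 1.00 without SDS library 2), and SDS library 3 was within the controls. Per kilobase of exon, the mean level in SDS was 26.7 for Clec2d, 7.17 for Clec2g and 3.81 for Clec2e (CPM per kb), against 23.4, 3.72 and 0.773 in controls. Cd69, the early activation marker of lymphocytes and a close relative in the same gene complex, was too low for the filter, with 20, 39 and 6 counts in the SDS libraries and 1, 1, 0, 4 and 5 counts in the controls. Without a filter its log2 fold change was 3.23 (edgeR adjusted p = 0.0601). Clec2 genes are close copies of each other, which leaves their shares of the reads uncertain.

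The promoters of the 3 genes called, and of Clec2d as the abundant relative that did not pass, are shown because each promoter of a called gene holds TGANTCA (N for any base). They are RefSeq promoters of GRCm38.p6, from 250 bases before to 50 bases after the start site, written 5′ to 3′ along the gene, with TGANTCA in capitals. This pattern is looser than the AP-1 heptamers TGACTCA and TGAGTCA.
Cd207 promoter, chr6:83677808-83678107, minus strand: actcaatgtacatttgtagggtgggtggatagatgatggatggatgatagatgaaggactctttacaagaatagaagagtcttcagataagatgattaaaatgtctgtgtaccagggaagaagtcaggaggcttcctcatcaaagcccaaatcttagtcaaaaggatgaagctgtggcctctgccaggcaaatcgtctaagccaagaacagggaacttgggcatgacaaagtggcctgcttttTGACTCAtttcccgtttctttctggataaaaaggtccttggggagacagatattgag
Clec2e promoter, chr6:129100854-129101153, minus strand: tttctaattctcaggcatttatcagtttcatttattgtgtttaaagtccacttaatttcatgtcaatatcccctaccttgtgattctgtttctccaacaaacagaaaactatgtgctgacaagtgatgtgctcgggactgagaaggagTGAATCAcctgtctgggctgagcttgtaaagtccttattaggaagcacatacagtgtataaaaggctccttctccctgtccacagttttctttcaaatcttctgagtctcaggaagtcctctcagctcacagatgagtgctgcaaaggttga
Clec2g promoter, chr6:128934131-128934430, plus strand: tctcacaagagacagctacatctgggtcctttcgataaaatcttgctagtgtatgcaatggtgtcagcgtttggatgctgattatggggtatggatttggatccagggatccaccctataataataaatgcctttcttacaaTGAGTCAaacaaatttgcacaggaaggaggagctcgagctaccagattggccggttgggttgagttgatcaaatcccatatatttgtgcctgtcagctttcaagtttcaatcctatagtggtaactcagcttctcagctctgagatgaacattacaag
Clec2d promoter, chr6:129180365-129180664, plus strand: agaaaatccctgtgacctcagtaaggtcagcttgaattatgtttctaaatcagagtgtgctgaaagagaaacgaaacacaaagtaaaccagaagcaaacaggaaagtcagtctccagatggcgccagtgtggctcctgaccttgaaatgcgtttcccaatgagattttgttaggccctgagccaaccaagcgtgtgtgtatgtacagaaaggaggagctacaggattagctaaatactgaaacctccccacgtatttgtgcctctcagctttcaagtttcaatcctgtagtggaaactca

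TGANTCA was found once in each of the promoters of Cd207, Clec2e and Clec2g, and not in the Clec2d window. The match began 7 bases before the start site in Cd207 (TGACTCA), 102 in Clec2e (TGAATCA) and 108 in Clec2g (TGAGTCA). The Clec2e match was thus neither of the AP-1 heptamers named above. A promoter was listed for 32 of the 39 tested genes, and 10 of these held TGANTCA on either strand, where 8.97% of all 27025 genes with a promoter did. The other 7 with a match, none of them called, were Cd209f, Cd209g, Clec12a, Clec18a, Clec4a2, Klra2 and Klrk1. GAGGAA, the core of sites for the myeloid factor PU.1, was found in 19 of the 32 and in 31.3% of all genes, TGTGGT, the core of RUNX sites, in 8 and in 18.9%, and TATAAA in 9 and in 15.7% (both strands each). The Clec2g and Clec2d promoters shared an identical run of 22 bases, tcagctttcaagtttcaatcct, which began 16 bases before the start site of Clec2g and 14 bases after that of Clec2d. A match of letters is a description and not a bound site.

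Of 6 activating receptors of myeloid cells tested, 5 were above every control in SDS libraries 1 and 2 and not in SDS library 3. Of all tested genes 8.36% had this pattern. None of the 6 passed. Clec7a, the beta-glucan receptor Dectin-1, measured 7.07, 16.5 and 2.09 CPM in SDS libraries 1, 2 and 3, against 3.31, 1.06, 1.81, 2.87 and 2.33 CPM in controls (log2 1.90 ± 0.58, SE; edgeR adjusted p = 0.134). The annotation classes Clec7a as a polymorphic pseudogene. Clec4d, a partner of Mincle in the recognition of mycobacterial glycolipid, measured 4.32, 7.48 and 1.04 CPM against 0.273, 0.241, 0.665, 1.08 and 0.915 CPM (log2 2.73 ± 0.65; adjusted p = 0.0803). Clec4e, which encodes Mincle itself, measured 5.89, 7.62 and 0.667 CPM against 0.375 to 2.71 CPM (log2 1.75 ± 0.78). In these 3 genes SDS library 2 was the highest of all libraries and SDS library 3 lay within the controls.

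Clec4n, the mannan receptor Dectin-2, had 64, 140 and 8 counts in the SDS libraries, against 10, 2, 5, 9 and 7 counts in the controls, too few for the filter because only SDS libraries 1 and 2 were high. Without a filter its log2 fold change was 3.40 (edgeR adjusted p = 0.0534). Clec5a, a receptor of monocytes and neutrophils that signals through Tyrobp, measured 4.17, 7.03 and 1.71 CPM with controls between 1.20 and 2.37 CPM (log2 1.19 ± 0.42). Clec9a, the receptor for exposed actin on cross-presenting dendritic cells, measured 1.34, 2.64 and 0.209 CPM against 0.369 to 1.28 CPM (log2 1.02 ± 0.67), and SDS library 3 was below every control. Clec4b1 was the exception, with SDS libraries 1 and 3 within the controls: it measured 1.10, 2.11 and 0.626 CPM against 0.0963 to 1.47 CPM (log2 0.70 ± 0.69). Clec1b, the podoplanin receptor of platelets, had 1, 8 and 4 counts in SDS and 0 to 7 in a control, and it shares 184 exon bases with Clec9a on the same strand. Clec4n entered the fit without SDS library 3 only through SDS libraries 1 and 2, where it was high, so its pass there is a description. Without SDS library 3, Clec4d (edgeR adjusted p = 0.0135), Clec7a (0.0201), Clec5a (0.0257) and Clec4n (0.00263) passed. Without SDS library 2 none of the 6 did, and the log2 fold change was 2.06 for Clec4d (edgeR adjusted p = 0.285), 1.00 for Clec7a (0.473), 0.64 for Clec5a (0.536) and 0.17 for Clec9a (0.941).

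The receptors listed here as inhibitory showed the same order of libraries, and 0 of 5 tested passed. Cd72, a phosphatase-recruiting receptor of B cells and some myeloid cells, measured 7.66, 11.7 and 2.21 CPM in SDS, against 1.54, 1.01, 1.96, 2.37 and 1.56 CPM in controls (log2 2.09 ± 0.47, SE; edgeR adjusted p = 0.0730). The B cell markers Ms4a1, Cd79a, Cd79b, Cd22 and Pax5 had another order: their sum was 1.81, 3.27 and 10.97 CPM in SDS libraries 1, 2 and 3, with controls between 0.443 and 1.42 CPM. Of these Cd22 passed, but with at most 0.137 CPM in a control it was tested only through its SDS libraries. The part of B cells in the Cd72 values was not tested. Cd72 shares 1423 of its 3422 exon bases with Tesk1 on the opposite strand. The strand setting of the counting is not given, so reads of the pair within the shared bases cannot be told apart. Tesk1 had 574, 622 and 445 counts in SDS and 460 to 789 in a control. Clec4a1 and Clec4a3, of the dendritic cell immunoreceptor group, measured 7.07, 23.1 and 2.21 CPM and 5.23, 20.8 and 1.5 CPM in SDS, against control maxima of 4.12 and 2.97 CPM (log2 1.97 ± 0.62 and 2.04 ± 0.67). Clec4a2, a member of the group with a classical inhibitory motif, measured 3.89, 9.17 and 1.96 CPM against 1.55 to 3.62 CPM (log2 0.97 ± 0.48), and the highest was SDS library 2. Clec12a, an inhibitory receptor for uric acid crystals on granulocytes and monocytes, measured 4.44, 12.6 and 1.58 CPM against 1.40 to 3.89 CPM (log2 1.43 ± 0.58). Clec4a genes are close copies, so the division of their reads is uncertain. Without SDS library 3, Cd72 (edgeR adjusted p = 0.00481), Clec4a1 (0.0209) and Clec4a3 (0.0216) passed and Clec12a (0.0504) did not. Without SDS library 2 none passed, and the log2 fold change was 1.54 for Cd72 (edgeR adjusted p = 0.267), 0.76 for Clec4a1 (0.543), 0.59 for Clec4a3 (0.641), 0.39 for Clec12a (0.789) and 0.20 for Clec4a2 (0.875).

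**Figure D3:**
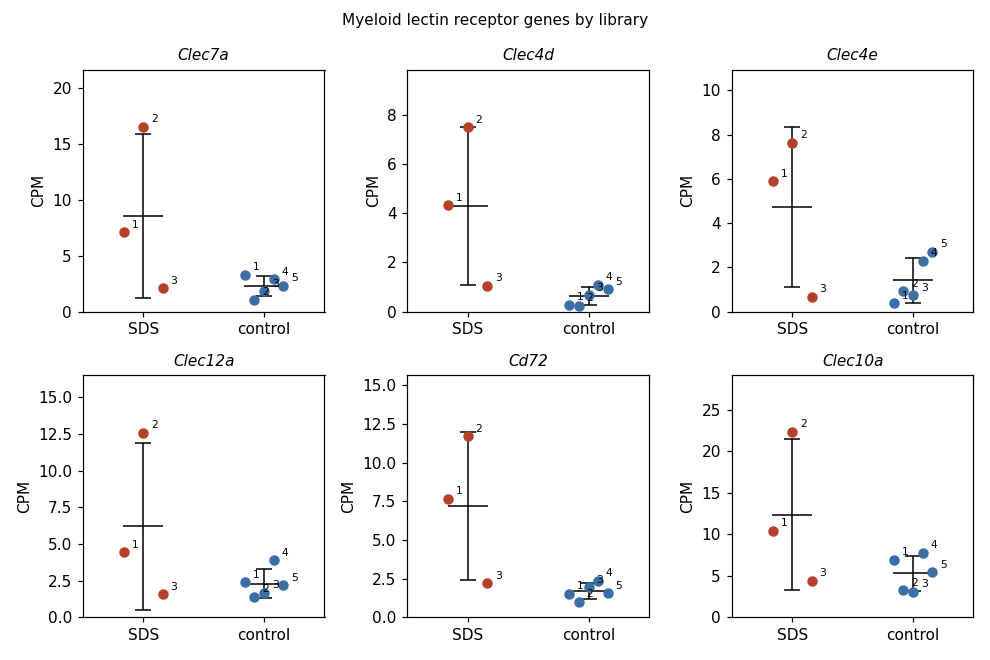
CPM by library (y axis) for 6 myeloid lectin receptor genes in SDS (left, red) and control (right, blue). Points are libraries with their numbers, horizontal bars are means and whiskers SD. SDS library 2 is the highest of the 8 libraries in each panel, and SDS library 3 lies within the range of the controls.

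Among the endocytic receptors, Cd207 was the one that passed of 9 tested. Clec10a, a galactose-type lectin of macrophages and dendritic cells, measured 10.5, 22.3 and 4.38 CPM in SDS, against 6.96, 3.27, 3.06, 7.81 and 5.45 CPM in controls (log2 1.22 ± 0.50, SE; edgeR adjusted p = 0.239), and its log2 fold change was 0.48 without SDS library 2. Cd209a, which encodes the mouse DC-SIGN of monocyte-derived dendritic cells, measured 4.40, 9.73 and 2.09 CPM against 1.78 to 5.26 CPM (log2 0.69 ± 0.49), and its log2 fold change was -0.05 without SDS library 2. Cd209d measured 1.53, 1.37 and 1.38 CPM against 0.222 to 1.19 CPM, so the groups did not overlap, with a log2 fold change of 0.88 ± 0.42 that did not pass (edgeR adjusted p = 0.313). Cd209f and Cd209g, members found on tissue macrophages, had log2 fold changes of -0.19 ± 0.43 (0.09 without control library 4) and -0.55 ± 0.48, and both were highest in control library 4, at 9.09 and 4.22 CPM. Colec12, a scavenger receptor of endothelium and stroma, measured 24.6, 31.0 and 14.3 CPM with controls between 23.1 and 36.7 CPM (log2 -0.26 ± 0.25, and 0.01 if SDS library 3 is left out). Cd209b (log2 0.32 ± 0.60) and Cd209c (0.55 ± 0.70, and -0.15 without SDS library 2) did not pass either. Cd209 genes are close copies on chromosome 8 and the division of their reads is uncertain.

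Over the family, SDS libraries 1 and 2 often lay above every control while SDS library 3 did not. This was so for 16 of the 39 tested genes (41.0%), beside 8.36% of all tested genes, and SDS library 2 exceeded SDS library 1 in all 16. In 13 of them SDS library 3 lay within the controls, and in Cd209c, Clec14a and Clec9a it lay below every control. All SDS libraries above all controls was found for Cd207, Clec2e, Clec2g, Cd209d, Klrb1b and Klrd1, 6 of the 39, beside 6.49% of all tested genes, and all below for 0, beside 6.89%. Klrd1 is among the 39 only through its SDS libraries, so these counts are descriptions. Several cell type marker sums were likewise high in SDS libraries 1 and 2. Macrophage markers, 10 genes with none at 0, summed to 805, 1620 and 449 CPM in SDS libraries 1, 2 and 3 against 321 to 523 CPM in controls. Neutrophil markers, 9 genes, summed to 135, 153 and 16 CPM against 4.97 to 32.2 CPM. Of the 4 tested, 3 had a positive log2 fold change and 0 passed. Csf3r gave 22.8, 45.4 and 0.542 CPM in SDS against 0.337 to 0.811 CPM (log2 5.25 ± 0.99, SE, edgeR adjusted p = 0.0507). Ltf gave 92.2, 89.7 and 0.542 CPM in SDS. Camp, also of neutrophil granules, was below every control in all SDS libraries, at 0.707, 0.246 and 0.667 CPM against 0.777 to 1.81 CPM. The defining marker Ly6g was listed at 0 in every control and at most 0.105 CPM in an SDS library. T cell markers, 10 genes, summed to 25.8, 24.1 and 4.96 CPM against 1.55 to 4.93 CPM. Of these Cd3d passed, but with at most 0.237 CPM in a control it was tested only through its SDS libraries. Gamma delta T cell markers, 4 genes, summed to 20.2, 12.7 and 0.959 CPM against 1.07 to 1.60 CPM. The part of these cells in the lectin receptor values was not tested.

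**Figure D4:**
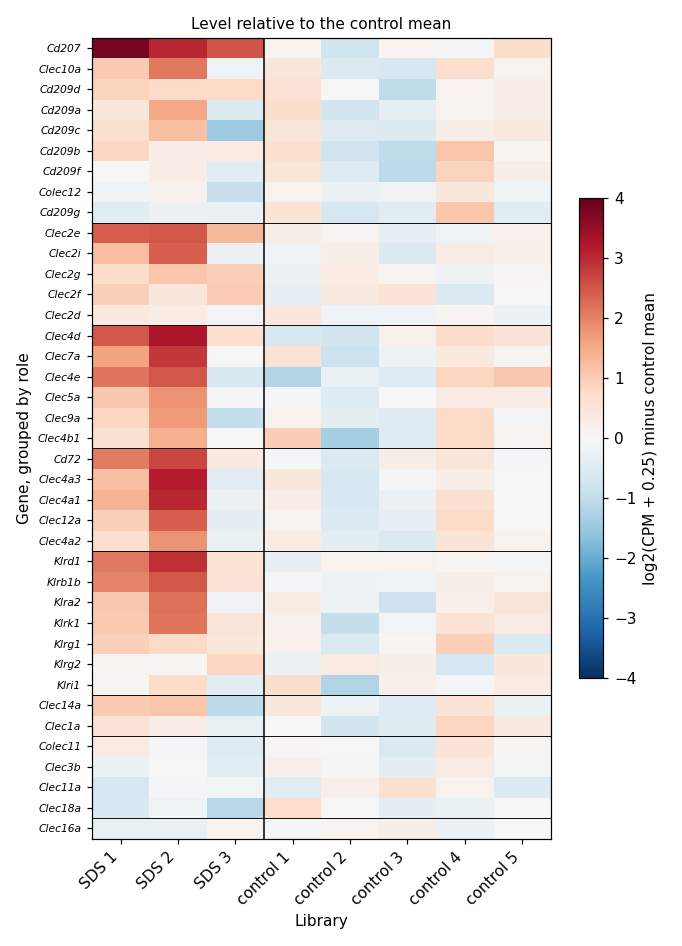
Level of each of the 39 tested genes (rows, grouped by role in the order endocytic, Clec2, activating, inhibitory, natural killer, endothelial, soluble, Clec16a) in each library (columns, SDS left of controls), as log2(CPM + 0.25) minus the mean of the 5 controls. Red is above and blue below that mean, on a scale reaching 4 on either side. Cd207 and Clec2e are red in all 3 SDS libraries, and most activating and inhibitory receptors in SDS libraries 1 and 2.

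The natural killer receptors were mostly at the limit of detection, and 7 of 30 could be tested, with 0 past the threshold. Klrb1b, the inhibitory NKR-P1B whose ligand is Clec2d, measured 2.83, 4.11 and 0.918 CPM in SDS, against 0.512, 0.433, 0.443, 0.676 and 0.610 CPM in controls (log2 2.28 ± 0.43, SE; edgeR quasi-likelihood adjusted p = 0.0507). Klrd1, the CD94 chain that pairs with NKG2 receptors, measured 1.85, 3.48 and 0.459 CPM against 0.137, 0.289, 0.295, 0.270 and 0.229 CPM (log2 2.97 ± 0.57; adjusted p = 0.0518). Neither gene overlapped between the groups. Both passed without SDS library 3 (adjusted p = 0.00226 for Klrb1b and 0.00263 for Klrd1) and neither without SDS library 2 (0.199 for Klrb1b and 0.202 for Klrd1). Klrd1 had 0 controls at the level of the filter, Klrg1 had 1, and Klra2 and Klri1 had 2 each; Klrd1 was tested through its SDS libraries alone. Klrk1, the activating receptor NKG2D, measured 1.53, 3.58 and 0.959 CPM against 0.193 to 1.05 CPM (log2 1.58 ± 0.53, and 0.88 without SDS library 2), and Klra2 0.825, 2.07 and 0.209 CPM against 0.0369 to 0.458 CPM (log2 1.87 ± 0.74, and 0.87 without SDS library 2). Klri1 had a log2 fold change of 0.12 ± 0.76, which was -0.52 without SDS library 2 and -0.16 without control library 2.

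Klrg1, an inhibitory receptor for cadherins on effector lymphocytes, had 12, 11 and 6 counts in SDS and 5, 0, 4, 14 and 0 counts in controls. Klrb1c, the NK1.1 antigen, had 4, 16 and 5 counts in SDS and 3, 0, 0, 8 and 1 in controls, and Klrc1, the NKG2A chain, 6, 14 and 3 against 1, 2, 0, 1 and 0. The 13 untested Klra genes, which encode Ly49 receptors for MHC class I, together had 18, 52 and 7 counts in SDS libraries 1, 2 and 3 and 8, 0, 3, 6 and 3 counts in the controls. They are close copies with several pseudogenes, so single members are not resolved. A level of 3 counts corresponds to 0.101 to 0.144 CPM, which covers counting error only. Natural killer cell markers were as low: Ncr1 stood at 0.118, 0.246 and 0.0834 CPM in SDS and at most 0.0763 CPM in a control, and 6 of the 8 markers were too low to test. The sum of the 8 was 5.86, 7.20 and 5.51 CPM in SDS against 2.46 to 4.06 CPM in controls. Itga2, an integrin also found on other cells, gave most of it in SDS libraries 1 and 3. It measured 3.62, 2.25 and 4.92 CPM in SDS against 1.69 to 2.94 CPM, so SDS library 2 lay within the controls. The 6 untested markers were all above every control in SDS libraries 1 and 2, at low levels. Of these, Nkg7 measured 0.511, 1.62 and 0.125 CPM in SDS against at most 0.304 CPM. Tbx21, a transcription factor of these cells, measured 0.275, 0.422 and 0 CPM in SDS against 0.241 to 0.649 CPM (log2 -0.85 ± 0.74).

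Klrg2 differed from the other Klr genes. It measured 15.7, 15.3 and 26.9 CPM in SDS, against 12.3, 18.2, 17.1, 8.79 and 19.5 CPM in controls (log2 0.35 ± 0.29, SE). The highest value was in SDS library 3 and the lowest in control library 4, as for the sum of the squamous epithelial markers. Krt14 of that list had another order, at 5036, 4008 and 1094 CPM in SDS libraries 1, 2 and 3 against 325 to 822 CPM in controls. It was called higher (log2 2.55 ± 0.47, SE; edgeR adjusted p = 0.0493). The part of epithelial content in the Klrg2 values was not tested.

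The endothelial and soluble members gave no call. Clec14a, a vascular endothelial lectin, measured 12.7, 13.5 and 2.84 CPM in SDS, against 8.23, 5.20, 4.21, 9.02 and 5.03 CPM in controls (log2 0.61 ± 0.47, SE, and 0.29 without SDS library 2), beside blood endothelial markers that summed to 239, 205 and 123 CPM against 131 to 268 CPM. Clec1a, also of endothelium, had a log2 fold change of 0.11 ± 0.44, which turned to -0.13 without SDS library 1, -0.06 without control library 2 and -0.03 without control library 3. Clec3b, the plasminogen-binding tetranectin of connective tissue, had the highest level per length of the family, at 105 CPM per kb in SDS and 123 in controls. It measured 102, 118 and 90.6 CPM in SDS with controls between 91.8 and 151 CPM (log2 -0.24 ± 0.17). Clec18a (log2 -0.89 ± 0.45) and the collectin Colec11 (-0.11 ± 0.37, and 0.13 without SDS library 3) were near 1 CPM or below in most libraries. Clec11a, a growth factor of bone and blood progenitors, measured 5.38, 8.29 and 7.92 CPM against 5.72 to 13.1 CPM (log2 -0.30 ± 0.29). Clec16a, which despite its name is an intracellular regulator of endosomes and autophagy, measured 41.1, 41.4 and 54.8 CPM against 42.9 to 60.4 CPM (log2 -0.16 ± 0.14).

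**Figure D5:**
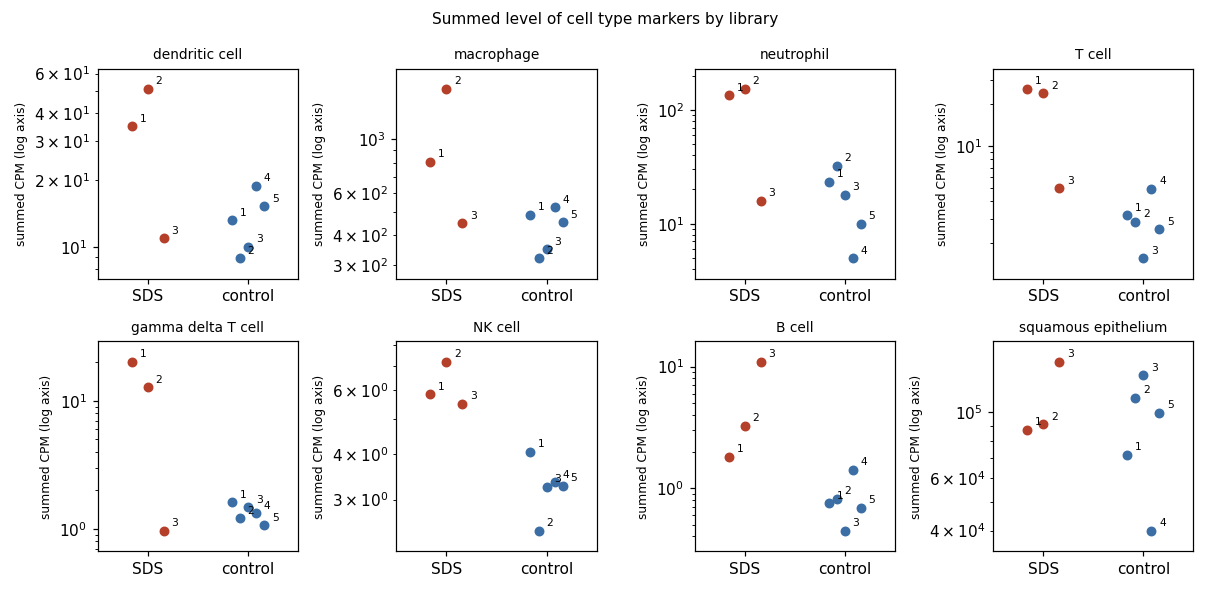
Summed CPM of cell type marker lists (y axis, log scale) by library for SDS (left, red) and control (right, blue), with library numbers beside the points. Macrophage, dendritic, neutrophil, T and gamma delta T cell markers are high in SDS libraries 1 and 2, B cell and squamous epithelial markers are highest in SDS library 3.

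The genes below the receptors gave no call either, beside 0.623% of all genes called higher. Of 25 adaptors and kinases, all tested, 0 passed, 20 had a positive log2 fold change and the median was 0.47. Of all 17179 tested genes, 8470 had a positive one. Card9, the adaptor that links Syk to NF-kappaB, measured 9.75, 16.2 and 4.50 CPM in SDS with controls between 3.24 and 4.50 CPM, where SDS library 3 lay just above control library 5 (log2 1.48 ± 0.35, SE; edgeR adjusted p = 0.0776). Tyrobp, the signalling chain DAP12 of Clec5a and several Klr receptors, measured 24.4, 44.7 and 11.4 CPM against 5.28 to 11.2 CPM (log2 1.75 ± 0.41; adjusted p = 0.0792). Ptpn6, the phosphatase SHP-1 recruited by inhibitory members, measured 28.6, 56.8 and 17.9 CPM against 13.7 to 15.2 CPM (log2 1.26 ± 0.30; adjusted p = 0.0809). Vav1, an exchange factor of blood cells, had a log2 fold change of 1.69 ± 0.47, and Syk measured 30.7, 55.6 and 25.8 CPM against 23.1 to 30.1 CPM (log2 0.56 ± 0.23). Of 10 output cytokines and mediators 4 were tested and 0 passed. Il1b measured 10.7, 12.7 and 0.876 CPM against 0.512 to 1.76 CPM (log2 3.10 ± 0.72; adjusted p = 0.0769). Cxcl2 (log2 1.82 ± 1.29), Tnf (1.23 ± 1.27) and Ptgs2 (-0.33 ± 0.41) were high in single controls as well, Cxcl2 and Tnf in control libraries 4 and 5.

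Ligands and other lectin genes gave 0 calls, beside 0.623% of all tested genes called higher and 0.425% called lower. Of 11 ligands matched, 9 were tested, with a median of 0.35. H2-T23, which encodes Qa-1, the ligand of the Klrd1 receptors, measured 57.3, 76.4 and 68.2 CPM in SDS with controls between 49.8 and 57.4 CPM (log2 0.35 ± 0.11, SE), and Ulbp1, a ligand of Klrk1, 0.629, 0.914 and 1.29 CPM against 0.137 to 0.626 CPM (log2 1.10 ± 0.44). Pdpn, the ligand of Clec1b, had a log2 fold change of 0.55 ± 0.26 and Cdh2, a ligand of Klrg1, of -0.85 ± 0.39. H60c, the Klrk1 ligand of keratinocytes, measured 30.9, 25.5 and 54.7 CPM against 22.9 to 34.2 CPM (log2 0.35 ± 0.25). Of 21 genes with a C-type lectin domain outside the name rule 13 were tested, with a median of 0.38. Ly75, the endocytic receptor DEC-205 of dendritic cells, measured 2.12, 2.78 and 0.834 CPM against 0.137 to 0.642 CPM (log2 2.28 ± 0.49; edgeR adjusted p = 0.0643), and the groups did not overlap. The vascular selectins Selp and Sele had log2 fold changes of 1.56 ± 0.36 and 2.10 ± 0.68. Thbd, the thrombin receptor thrombomodulin, had one of 0.48 ± 0.18. Of the 13, 8 had a positive log2 fold change, beside 8470 of all 17179 tested genes. Chodl, the muscle lectin chondrolectin, was below every control in all SDS libraries, at 2.36, 1.93 and 1.96 CPM against 2.47 to 4.33 CPM (log2 -0.63 ± 0.24), and did not pass. Mrc1, the macrophage mannose receptor, measured 46.3, 85.8 and 17.0 CPM against 21.1 to 37.1 CPM, with SDS library 3 below every control (log2 0.81 ± 0.43).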

How the data were processed

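RNA of whole esophagus was sequenced in 3 SDS and 5 control libraries, grouped by the titles in the labels. The authors deposited whole-number counts for each gene, not normalized. Tools named per the submitters' processing notes are STAR 2.6.1c, Subread, FastQC and bcl2fastq, with build mm10; the annotation release, strand setting and treatment of multiply matching reads are not given there. Symbols matched 48970 of 49315 identifiers. Of the 76 genes, 73 had the same span in GENCODE M21.

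The fit used edgeR 4.0.16 (R 4.3.3) on these counts: filterByExpr (minimum count 10, total 15), TMM, robust quasi-likelihood test with group as the term, two-sided, Benjamini-Hochberg over the 17179 genes tested. Standard errors are log2 fold changes divided by the square root of F. No libraries of a group were copies (lowest chi-square per degree of freedom 23.3). The procedure was tested on simulated data. Alternatives were RLE and upper quartile scaling, no filter, 1 CPM in 3 libraries, DESeq2 1.42.0, limma-voom 3.58.1 with and without sample weights, each library left out, and a replicate block.

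The genes, lists and tests were chosen with earlier results of these data known. Named genes were those past an adjusted p of 0.05, those with an unadjusted p under 0.05 and a fixed set of receptors; of pathway lists, up to 4 by smallest p. Others are named for a comparison and were chosen after their values were seen. Raet1a, Raet1b, Raet1c and H60a had no matching identifier and are not analysed here. In addition, 1 gene of the B cell marker list and 1 of the list of other lectin genes are not reported here and were left out of those lists.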

Additional observations from a re-analysis of the deposited data

Results flagged for a closer look

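Clec18a, a soluble lectin that did not pass the test, measured 0.393, 0.632 and 0.209 CPM in SDS libraries 1, 2 and 3, against 1.33, 0.722, 0.517, 0.575 and 0.725 CPM in control libraries 1 to 5. Control library 1 stood far from the other controls: its gap to the next was 0.745 of the range of the 5 controls, above the critical value of Dixon's test (0.71). The controls of all 39 tested genes were examined in this way, so a single such gap can arise by chance.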

How the results depend on the processing

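The number of lectin receptor genes called higher was 3 with all libraries. It was 5 of 73 tested with no filter, beside 0.507% of all genes called higher. It was 10 with DESeq2, beside 5.00%, and 12 with limma-voom and sample weights, beside 6.58%. The count was 3 or 4 under both other scalings, the filter of 1 CPM in 3 libraries and limma-voom without weights, beside 0.390% to 0.704%. Leaving out single libraries gave 0 to 14, beside 0.0228% to 4.98%. The 14 included Cd69, Clec4n and Klrd1, tested there only through SDS libraries. No setting called a gene lower. Cd207 passed under each of these other scalings, filters and tools, and its log2 fold change was 3.15 to 3.88 with single libraries left out. Whether the replicate numbers pair the libraries is not known. Correlations of deviations were 0.311, -0.006 and 0.307 for equal numbers 1, 2 and 3, and -0.451 to 0.225 for unequal numbers. A replicate block over libraries 1 to 3 of each group gave 0 calls, beside 0% of all genes, and a Cd207 log2 fold change of 3.88 (edgeR adjusted p = 0.0662). The same 6 libraries with no block, a setting chosen after seeing the data, gave 0, beside 0.0119% called higher, and 3.90 (0.115). With single libraries left out, Cd209a lay between -0.0468 (without SDS library 2) and 1.09, Cd209c between -0.15 (without SDS library 2) and 1.09, Cd209f between -0.39 and 0.0911 (without control library 4), Colec11 between -0.41 and 0.13 (above 0 without SDS library 3 or control library 4), Colec12 between -0.51 and 0.00708 (without SDS library 3), Klri1 between -0.52 and 0.49 (below 0 without SDS library 2 or control library 2), and Clec1a between -0.13 and 0.43 (below 0 without SDS library 1, control library 2 or control library 3). Cd209c was -0.0800 with limma-voom. With sample weights Cd209f was 0.0777 and Colec11 0.24; with the replicate block they were 0.33 and 0.14, and in the same 6 libraries with no block 0.21 and 0.16. None of these 7 genes was called in any of those settings; the cause was not tested. Beside Cd207, 31 of the other 38 genes tested kept their sign in all settings that tested them. Members under about 10 counts were not testable at this depth.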
